A study of Mus musculus with 6 samples.

Results

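The 7 genes described here encode parts of the machinery that presents cytosolic peptides at the cell surface: the class I heavy chains H2.K1, H2.D1 and H2.T24, their light chain B2m, the peptide transporter subunits Tap1 and Tap2, and tapasin, Tapbp. They were chosen by symbol, and keep the deposited spelling with a full stop in place of the hyphen. All 7 were among the 20596 rows with a symbol, and all 7 passed the filter that left 16169 genes for testing, a normalized count of at least 10 in at least 3 libraries. The libraries came from 266.6 cells, a mouse acinar tumour line grown in high-glucose DMEM with fetal bovine serum, as 3 control libraries and 3 from cells kept in medium conditioned by cancer-associated fibroblasts (CAF_CM) for at most 40 days. The treatment text is the same on all 6 sample records, no culture time is given for the controls, and a response to the medium and a drift over passages cannot be told apart. The libraries held 18622370 to 21002226 recovered reads. The line descends from an exocrine tumour driven by a T antigen transgene under the elastase promoter, so both groups are tumour cells. The labels do not say that replicates were separate cultures, and p-values therefore measure the spread between these libraries.

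Class I molecules show fragments of the cell's own proteins to CD8 T cells, and their loss from a tumour cell removes those targets while lifting a brake on natural killer cells. Proteasomes cut the peptides, TAP carries them into the endoplasmic reticulum, tapasin holds TAP beside an empty heavy chain and B2m pair, and the filled complex moves to the surface. Transcription of heavy chains and of B2m is known to depend on NF-kB and interferon response elements and on a promoter module bound by RFX, CREB and NF-Y factors, which the coactivator NLRC5 uses. In the mouse all the genes chosen by symbol here but B2m lie in the H-2 region of chromosome 17, and B2m lies on chromosome 2.

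RefSeq promoter windows of 300 bases, 250 before the annotated start and 50 from it (build GRCm38.p6), were matched for 5 of the 7 genes, and H2.T24 and Tap2 had none. They are shown because 5 genes that fell together can be compared by the known elements of class I promoters. Capitals mark GGGGATTCC (from the NF-kB site of class I enhancer A), TTTCACTT (core of the class I interferon response element), GAAANNGAA (from the spaced interferon response element), TGACG (core of the CREB element), CCAAT (the NF-Y box) and TATAA, searched on both strands. Each line runs 5′ to 3′ on the gene's strand.
H2.K1 (chr17:34000298-34000597, strand -): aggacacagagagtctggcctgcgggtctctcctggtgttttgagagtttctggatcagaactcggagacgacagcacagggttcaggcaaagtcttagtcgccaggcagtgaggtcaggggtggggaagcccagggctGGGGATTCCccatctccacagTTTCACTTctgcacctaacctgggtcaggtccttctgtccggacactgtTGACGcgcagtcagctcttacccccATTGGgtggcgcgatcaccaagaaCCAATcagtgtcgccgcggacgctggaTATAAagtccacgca
H2.D1 (chr17:35262844-35263143, strand +): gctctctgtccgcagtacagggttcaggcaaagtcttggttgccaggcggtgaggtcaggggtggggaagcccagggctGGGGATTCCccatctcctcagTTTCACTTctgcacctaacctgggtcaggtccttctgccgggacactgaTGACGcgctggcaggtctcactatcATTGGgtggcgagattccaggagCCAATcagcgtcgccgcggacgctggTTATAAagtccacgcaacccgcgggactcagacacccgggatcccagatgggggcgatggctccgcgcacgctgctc
B2m (chr2:122147437-122147736, strand +): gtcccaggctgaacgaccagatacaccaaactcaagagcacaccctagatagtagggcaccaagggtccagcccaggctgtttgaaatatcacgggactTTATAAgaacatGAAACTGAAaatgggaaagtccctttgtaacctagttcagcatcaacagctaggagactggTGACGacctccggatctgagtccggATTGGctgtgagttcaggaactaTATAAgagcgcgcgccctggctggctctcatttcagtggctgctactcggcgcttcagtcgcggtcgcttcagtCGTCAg
Tap1 (chr17:34187306-34187605, strand +): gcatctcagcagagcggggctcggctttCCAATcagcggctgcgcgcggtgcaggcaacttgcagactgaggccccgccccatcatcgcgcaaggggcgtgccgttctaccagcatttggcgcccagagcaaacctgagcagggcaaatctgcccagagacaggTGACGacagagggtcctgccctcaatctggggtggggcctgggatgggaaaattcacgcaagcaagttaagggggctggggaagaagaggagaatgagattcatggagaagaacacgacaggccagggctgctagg
Tapbp (chr17:33919228-33919527, strand +): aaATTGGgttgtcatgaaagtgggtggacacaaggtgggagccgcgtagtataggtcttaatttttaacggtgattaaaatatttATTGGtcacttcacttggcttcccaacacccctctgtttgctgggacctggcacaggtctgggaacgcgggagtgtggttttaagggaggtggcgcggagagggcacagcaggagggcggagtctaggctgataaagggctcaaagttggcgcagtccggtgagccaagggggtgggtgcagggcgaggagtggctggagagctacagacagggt

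H2.K1 and H2.D1 carried the same elements in the same order, the NF-kB site, the interferon response core, the CREB core, an inverted and a forward NF-Y box and TATAA. From the first to the last of these, 133 of 151 aligned positions were identical (88.1%). In H2.D1 an inverted TATAA overlapped the forward one. The forward TATAA began 26 bases before the annotated start of H2.D1, and in H2.K1 it lay after the annotated start. Of all 32851 promoter windows of this length, 0.25% held GGGGATTCC and 1.6% held TTTCACTT. B2m held GAAANNGAA, found in 8.56% of windows, followed by TGACG, an inverted CCAAT and TATAA. It also held an upstream pair of TATAA that overlapped on opposite strands and an inverted TGACG after the start. For NF-kB only the letters GGGGATTCC were searched. A window without them, such as that of B2m, may hold an NF-kB site of other spelling. The Tap1 window held 1 TGACG and 1 CCAAT, and the Tapbp window 2 inverted CCAAT. Over all windows, 20.8% held TGACG, 37.4% held CCAAT and 24.9% held TATAA. A second annotated start of H2.K1 gave a window shifted along the same sequence. These matches describe the letters of the reference strain and not binding in these cells.

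In CAF_CM libraries the classical heavy chains, B2m, both TAP subunits and tapasin were all lower than in control by about the same amount, to between 66.3% and 71.8% of the control level, whereas the nonclassical heavy chain H2.T24 was higher. At an adjusted p under 0.05 (limma with Benjamini-Hochberg adjustment over all genes tested), 6 of the 7 were lower and 1 was higher, where 16.1% of all genes tested were lower and 18.3% higher, 34.4% in either direction. Fewer cells with a transcript and less of it per cell cannot be told apart in these bulk libraries. For all 7 the groups did not overlap, 6 lying below and 1 above, as did 22.9% and 24.8% of all genes. The median log2 fold change was -0.58 for the 6 that fell and 0.00459 for all genes, and the 2602 genes called lower had a median of -0.40. The genes were picked with earlier results of these data known, so these counts describe them and do not test the group.

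**Figure D1:**
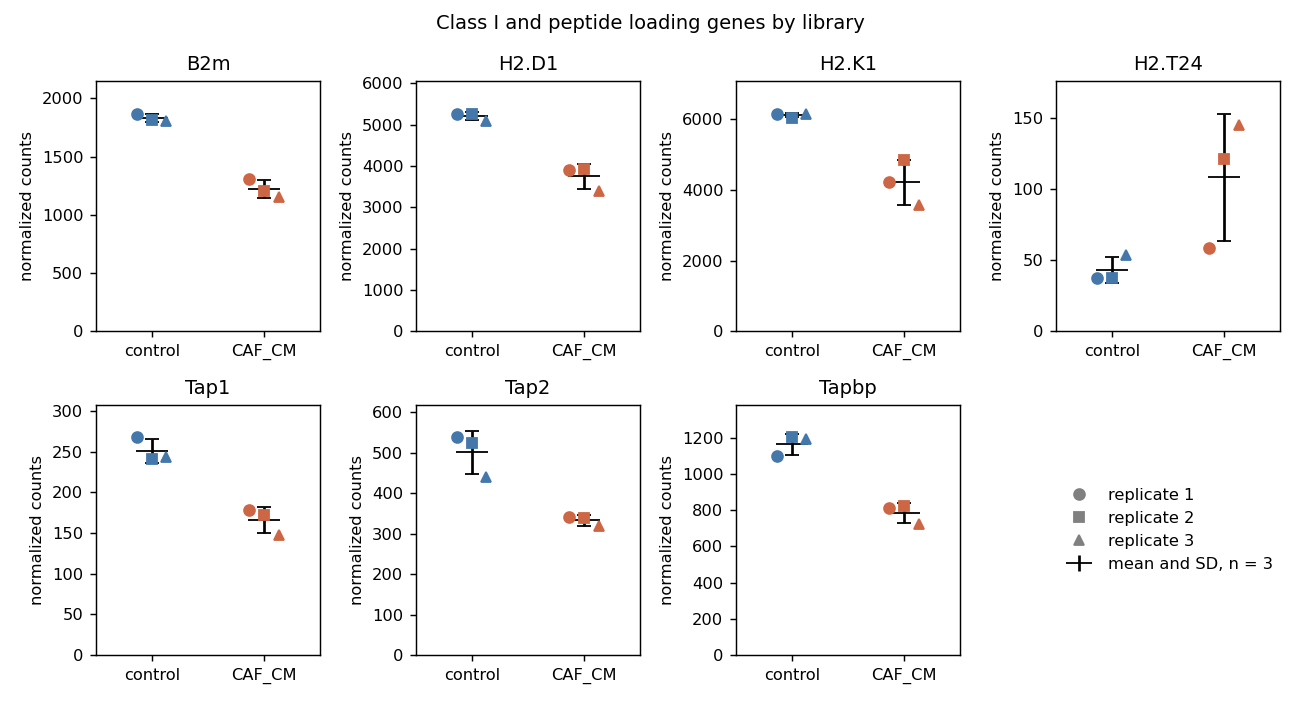
Normalized counts (vertical axes, each from 0) of the 7 genes in the 3 control and 3 CAF_CM libraries, with the group mean and SD as black bars and the replicate number as marker shape. Control and CAF_CM libraries do not overlap in any panel; 6 genes are lower in CAF_CM, and H2.T24 is higher, with the widest spread relative to its mean.

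The heavy chain gene H2.K1 held 6156, 6047 and 6133 normalized counts in control libraries, given here and later in replicate order, and 4235, 4849 and 3572 with CAF_CM. Control libraries lay within a narrow band and the treated ones were spread, with replicate 2 highest. Its log2 fold change on the log2(value + 1) scale was -0.55 (SE 0.09, 95% interval -0.74 to -0.36, adjusted p = 7.54e-04 by limma). The second classical chain, H2.D1, had 5257, 5264 and 5093 normalized counts in control and 3900, 3932 and 3402 in CAF_CM libraries. Replicates 1 and 2 of the treated group were close to each other and replicate 3 was lower. H2.D1 fell by 0.48 on the log2 scale (SE 0.06, 95% interval -0.61 to -0.35, limma adjusted p = 1.85e-04).

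B2m is the light chain that pairs with class I heavy chains. It had 1870, 1816 and 1805 normalized counts in control and 1309, 1206 and 1154 in CAF_CM libraries. The SD was 1.90% of the mean in control and 6.44% in CAF_CM libraries, against 0.940% and 15.1% for H2.K1. Its log2 fold change was -0.58 (SE 0.06, 95% interval -0.71 to -0.46, limma adjusted p = 5.57e-05).

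The transporter pair moved together. Tap1 went from 268, 241 and 244 normalized counts in control to 178, 172 and 148 in CAF_CM libraries, and Tap2 from 538, 525 and 441 to 342, 339 and 318. Treated libraries were tight for Tap2, and in control its replicate 3 was the low one. The log2 fold changes were -0.59 for Tap1 (SE 0.10, limma adjusted p = 0.00117) and -0.58 for Tap2 (SE 0.09, limma adjusted p = 5.08e-04). Tapasin, which edits the bound peptide, had 1098, 1202 and 1193 normalized counts in control and 809, 824 and 721 in CAF_CM libraries, a log2 fold change of -0.57 (SE 0.07, 95% interval -0.72 to -0.42, limma adjusted p = 1.42e-04).

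H2.T24, a nonclassical class I gene of the T region, had 37.6, 37.7 and 53.4 normalized counts in control and 58.7, 121 and 145 in CAF_CM libraries. The highest control and the lowest treated library were near each other, and CAF_CM replicates 2 and 3 stood well above both. The log2 fold change was 1.24 (SE 0.29, 95% interval 0.61 to 1.86, limma adjusted p = 0.00642), and it ran from 0.98 without CAF_CM replicate 3 to 1.63 without CAF_CM replicate 1. H2.T24 rested on 37 to 153 reads per library, whereas B2m rested on 1216 to 1941. RefSeq places A930015D03Rik across part of the H2.T24 locus, and the sources used here do not say whether counting used strand. It also has Patl2 overlapping B2m and Gm19412 overlapping Tapbp. Patl2 was not among the rows with a symbol. Gm19412 held 1.02 to 3.85 normalized counts in control and 1.90 to 2.06 in CAF_CM libraries. A930015D03Rik held 1.93, 0 and 0 normalized counts in control and 0, 2.94 and 4.75 in CAF_CM libraries. How reads of the shared stretch were assigned is not given, and their part in the H2.T24 values was not tested.

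Class I genes are close relatives, and reads can be split among them. Of all 50-base windows of the longest GENCODE transcript, 8.11% of those of H2.K1, 14.3% of H2.D1 and 3.23% of H2.T24 also occurred in a transcript of another gene. None of the windows of B2m did, and the shares were 0.647% for Tap1, 0.737% for Tap2 and 2% for Tapbp. The sources used here give neither the H-2 haplotype of the line nor the rule for reads that match several genes, and the split of reads between heavy chain genes is to that extent uncertain.

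Per kilobase of the longest GENCODE transcript, control levels ran in the order H2.K1 (3261 normalized counts per kilobase), H2.D1 (2476), B2m (2128), Tapbp (402), Tap2 (146), Tap1 (64.1) and H2.T24 (19.7). No 2 neighbours in that order overlapped between control libraries. In CAF_CM libraries the means were 2251 for H2.K1, 1782 for H2.D1, 1422 for B2m, 271 for Tapbp, 96.7 for Tap2, 49.7 for H2.T24 and 42.5 for Tap1. The first 5 kept their order without overlap. H2.T24 spanned 26.9 to 66.6 and Tap1 37.9 to 45.5 normalized counts per kilobase there, so these 2 could not be ordered.

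**Figure D2:**
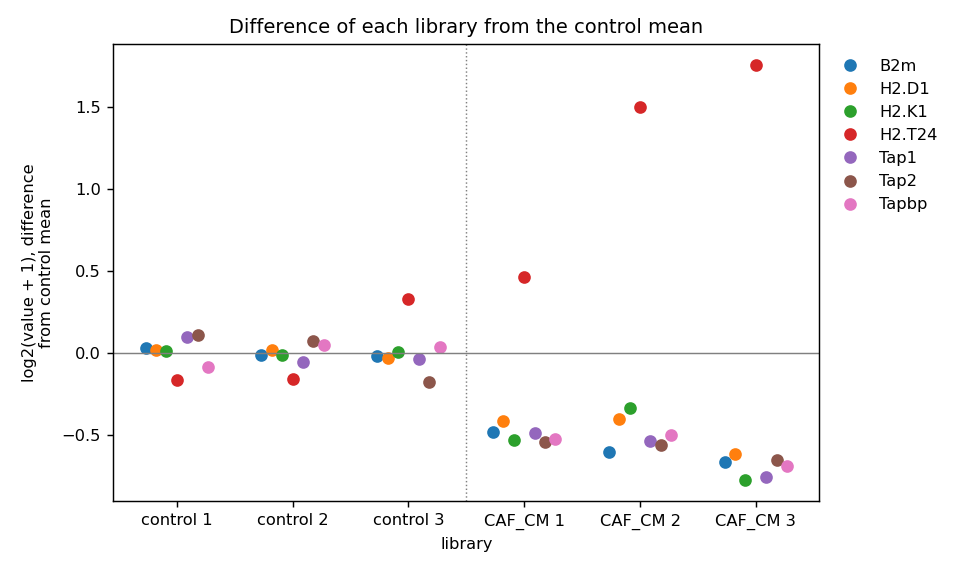
Difference of log2(value + 1) of each of the 7 genes from its control mean (vertical axis) in each library (horizontal axis), 1 colour per gene; points are set side by side within a library. The 6 falling genes sit together in each treated library and lowest in CAF_CM replicate 3, where H2.T24 is highest.

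Each of the 6 genes that fell had its lowest value in CAF_CM replicate 3. The order of replicates 1 and 2 differed among them. H2.K1, H2.D1 and Tapbp were higher in replicate 2 than in replicate 1, and B2m, Tap1 and Tap2 were lower. A lowest value in replicate 3 was not particular to the 6, since H2.Q4, H2.T23, Ctrb1 and Rpn2 were also lowest there. Other falling genes, such as Rbpjl and Cd1d1, were lowest in CAF_CM replicate 1. The share over all genes called lower was not counted. The median log2 difference of the 6 from the control mean was -0.51 in CAF_CM replicate 1, -0.52 in replicate 2 and -0.68 in replicate 3, while the median of all genes tested was between 0.00517 and 0.00987 in these libraries. Differences of single genes ran from -0.77 for H2.K1 in replicate 3 to -0.33 for H2.K1 in replicate 2. H2.T24 went the other way in the same libraries, with differences of 0.46, 1.5 and 1.76 in replicates 1, 2 and 3.

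Whether 2 genes changed by different amounts was examined through the log2 ratio of their values in each library, for 6 pairs. With 3 libraries per group the smallest two-sided exact permutation p is 0.10. The ratio of H2.D1 to B2m was 1.51 ± 0.0239 in control and 1.61 ± 0.0801 in CAF_CM libraries (log2, mean ± SD, n = 3), without overlap, a difference of 0.11 (exact permutation p = 0.10, adjusted p = 0.30 over the 6 pairs). The ratio of H2.K1 to B2m differed by 0.0371, that of H2.D1 to H2.K1 by 0.0680, that of Tap1 to Tap2 by -0.00887 and that of Tapbp to Tap1 by 0.0239, and in these 4 pairs the groups overlapped. For H2.T24 against H2.K1 the log2 ratio went from -7.14 ± 0.28 to -5.36 ± 0.77 (n = 3 each), a difference of 1.78 without overlap (exact permutation p = 0.10, adjusted p = 0.30). H2.T24 made up 0.716% to 2.04% of the summed normalized counts of these 3 heavy chains in CAF_CM libraries, and 0.328% to 0.473% in control.

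The other class I heavy chain genes of the H-2 region, whose products also pair with B2m, were mostly lower. Of 9 tested, 8 fell and 0 rose, with a median log2 fold change of -0.58. The shares over all genes tested were 16.1% lower and 18.3% higher. H2.Q4 fell from 1453 ± 71.3 normalized counts in control to 878 ± 84.1 with CAF_CM (SD over 3 libraries in each, as in what follows) and H2.Q10 from 459 ± 11.7 to 288 ± 78.3. H2.T23, the mouse gene for Qa-1, which presents leader peptides of other class I chains to natural killer cell receptors, fell from 598 ± 40.5 to 382 ± 73.1 normalized counts. H2.T10 was lower by the most, from 54.0 ± 4.22 to 24.9 ± 2.39 normalized counts. H2.Q1 did not pass the test (log2 fold change -0.26, limma adjusted p = 0.247). Shared 50-base windows were more frequent here, up to 35.8% for H2.T22, mostly with H2.T10, so these falls may rest in part on the same reads. H2.T22 lost its call under 1 of 18 alternatives.

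Relatives of class I encoded outside H-2 gave 4 falls and 0 rises in 6 tested, against 16.1% lower and 18.3% higher over all genes. Cd1d1, which presents lipids and pairs with B2m, fell from 274 ± 7.90 to 166 ± 17.5 normalized counts. Fcgrt, the neonatal Fc receptor chain, fell by 0.43 and Mr1, which presents vitamin B metabolites, by 0.64 log2 units, and Procr, the endothelial protein C receptor, which shares the fold but not B2m, fell from 621 ± 61.5 to 302 ± 19.8 normalized counts. Mr1 did not pass the test under 2 of 18 alternative settings (adjusted p up to 0.0600). Hfe, the iron regulator of the family, had a log2 fold change of -0.20 (limma adjusted p = 0.192).

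**Figure D3:**
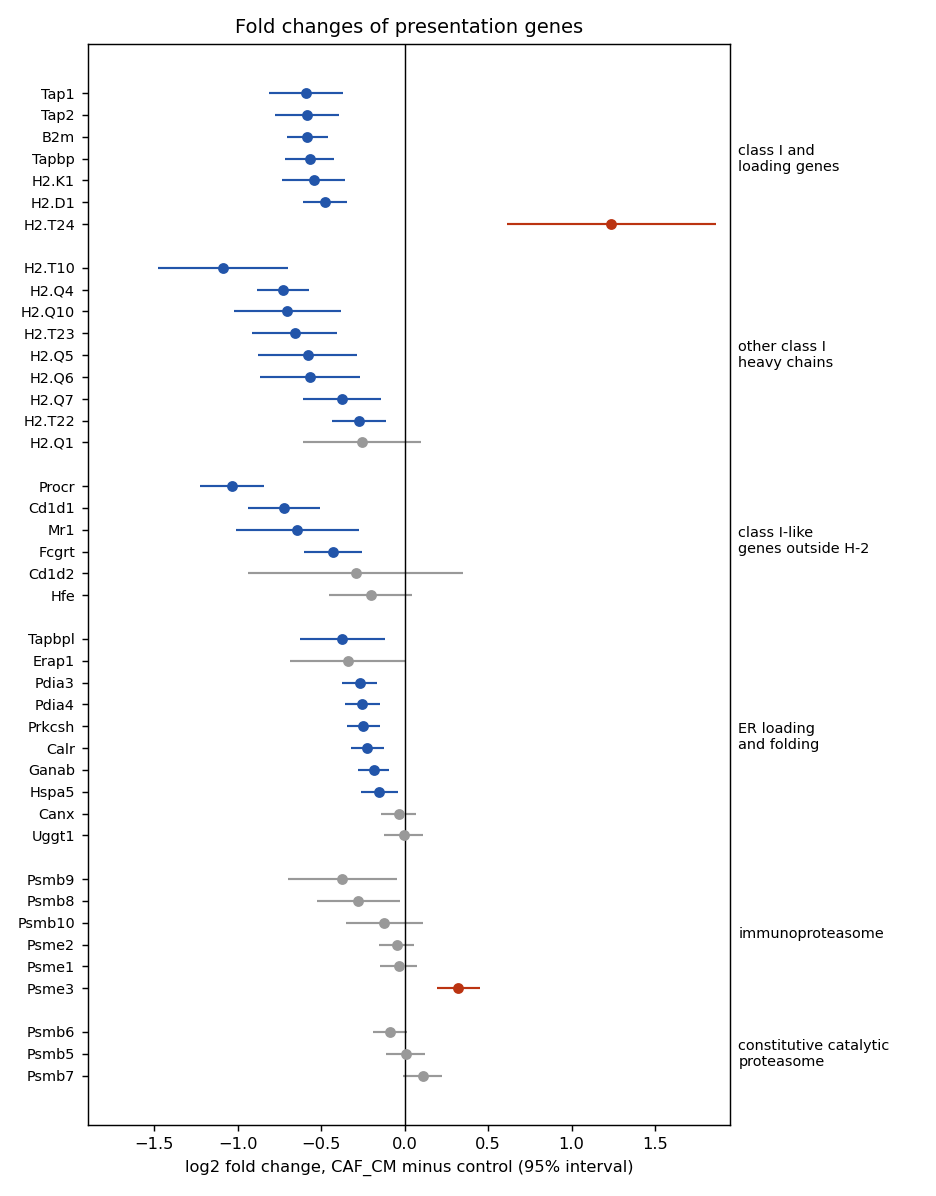
Log2 fold change with its 95% interval (horizontal axis, CAF_CM minus control) of the tested genes of 6 lists, blue where lower and red where higher at an adjusted p under 0.05, grey otherwise. Heavy chains, their relatives and the loading genes lie left of 0 apart from H2.T24, some of them in grey. Of the proteasome genes, Psmb8, Psmb9, Psmb10, Psme1, Psme2 and Psmb6 also lie left of 0, in grey. Only Psme3 among them passed the test, as higher.

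Chaperones and glycan editors fold class I in the endoplasmic reticulum. Of 10 tested, 7 fell and 0 rose (median log2 fold change -0.24), against 16.1% lower and 18.3% higher over all genes. Calr, the chaperone of the loading complex, fell from 12684 ± 209 to 10869 ± 351 normalized counts and its thiol oxidoreductase partner Pdia3 from 9906 ± 70.3 to 8218 ± 391. Prkcsh (-0.25) and Ganab (-0.19), the subunits of glucosidase II, and Pdia4 (-0.25) also fell, as did Tapbpl (-0.37), a tapasin relative outside the complex, and Hspa5 (-0.15). The calls of Tapbpl and Hspa5 were lost under 6 and 5 of 18 alternatives, among them the loss of any 1 control replicate. Erap1, which trims peptides, had a log2 fold change of -0.34 (limma adjusted p = 0.114) and passed as lower under 3 of 18 alternatives, and Canx and Uggt1 values of -0.0362 and -0.00639, Uggt1 passing as lower with the length and GC correction.

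Proteasomes act upstream of TAP. Of 6 genes of the immunoproteasome and its activators, 0 fell and 1 rose, Psme3, from 3331 ± 130.2 to 4169 ± 310.0 normalized counts. Among all genes tested, 16.1% were lower and 18.3% higher. Psme3 encodes a nuclear activator that is not induced by interferon. Psmb9, which shares a divergent promoter region with Tap1, had 109, 138 and 95.3 normalized counts in control and 90.6, 90.1 and 79.7 in CAF_CM libraries (log2 fold change -0.37, 95% interval -0.70 to -0.0483, limma adjusted p = 0.0722). Psmb8 had a value of -0.28 (adjusted p = 0.0791, limma), and Psme1 and Psme2, which form the interferon-induced activator, values of -0.0358 and -0.0475. Psmb8 and Psmb9 each passed the test as lower under 2 of 18 alternatives, library totals among them, and the signs of Psme1 and Psme2 turned after a correction for transcript length and GC content. Of the 3 constitutive subunits that the immunoproteasome replaces, 0 fell and 0 rose, though Psmb6 passed as lower under 1 and Psmb7 as higher under 2 of 18 alternatives.

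Among 22 tested transcription factors of class I promoters, 1 fell and 2 rose, with a median log2 fold change of 0.00332. Of all genes tested, 16.1% were lower and 18.3% higher. Nlrc5, the class I coactivator, had 30.8, 33.7 and 26.2 normalized counts in control and 26.8, 20.6 and 27.5 in CAF_CM libraries, an overlapping range (log2 fold change -0.27, 95% interval -0.74 to 0.20, limma adjusted p = 0.356). Rfx5, the DNA-binding subunit of RFX, had a value of -0.26 (limma adjusted p = 0.0592), and Rela and Nfkb1 of NF-kB had values of 0.0753 and -0.13. Irf1 (0.10, limma adjusted p = 0.243) did not pass either. Under alternatives, Rfx5 passed as lower in 3 of 18, and Rela and Irf1 as higher in 1 of 18 each, the length and GC correction. Irf3, the factor of the innate nucleic acid response, fell by 0.29 log2 units, and Creb1 rose from 1315 ± 42.7 to 1768 ± 131.7 normalized counts, followed by Atf1 (0.22), which lost its call under 5 of 18 alternatives. The number of factors that rose was 1 with library totals, without any 1 control replicate or without CAF_CM replicate 3, 4 without CAF_CM replicate 1, and 5 with the length and GC correction.

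Of 12 interferon receptor and signalling genes tested, 3 fell and 3 rose. Over all genes tested, 16.1% were lower and 18.3% higher. Ifngr1, the ligand-binding chain of the interferon gamma receptor, fell from 527 ± 24.9 to 359 ± 18.4 normalized counts and Il10rb, shared by the lambda interferon and interleukin 10 receptors, from 719 ± 29.5 to 507 ± 9.92, while Ifngr2 and Ifnar1 had values of 0.0554 and 0.0264. The kinase genes Jak1 and Jak2 and the cytokine signalling inhibitor gene Socs3 rose, Socs3 by 0.93. The call of Jak1 was lost under 8 and that of Jak2 under 1 of 18 alternatives, and without control replicate 1 only 1 of these genes rose. Usp18, an interferon-induced brake on the type I receptor, fell by 0.79. In the list of interferon-stimulated effectors, 15 of 36 fell and 2 rose, Trim25 (0.38) and the RNA-editing enzyme gene Adar (0.39). The falls included Bst2 (-0.93), Parp9 (-0.51) and the GTPase gene Irgm1 (-0.89).

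Of the class II presentation list 3 genes were tested, and 1 fell, where 16.1% of all genes tested were lower. H2.DMa, the most abundant of the 3, had 88.6, 94.9 and 99.4 normalized counts in control and 82.4, 74.4 and 75.0 in CAF_CM libraries, without overlap (log2 fold change -0.28, limma adjusted p = 0.101). H2.DMb1, which edits peptides on class II, fell from 12.5 ± 0.857 to 4.55 ± 1.86 normalized counts, a call that was lost in DESeq2 and without control replicate 2 or 3 and that was not tested with a filter of 1 CPM. Cd74 had 23.1 to 33.7 in control and 20.6 to 27.4 in CAF_CM libraries. Among 10 genes of class I export and turnover, 3 fell and 1 rose, with a median log2 fold change of 0.0887. The share called over all genes tested was 34.4%, with 16.1% lower and 18.3% higher. Bcap31, an exit factor of class I, fell from 3149 ± 75.2 to 2438 ± 29.0 normalized counts. The degradation genes Syvn1 (-0.45) and Sel1l (-0.31) also fell. Derl1 rose (0.16), a call that was lost under 4 of 18 alternatives.

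**Figure D4:**
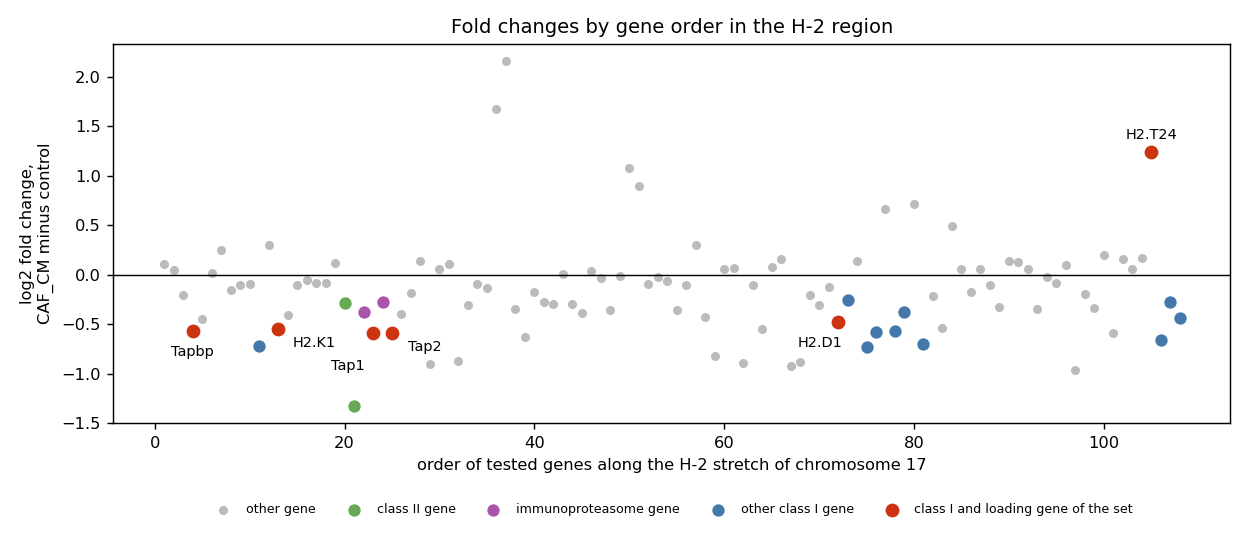
Log2 fold change (vertical axis, CAF_CM minus control) of 108 tested genes by their RefSeq order along the H-2 stretch of chromosome 17 (horizontal axis, rank), coloured by class. Class I genes lie below 0 except H2.T24, among genes of other function on both sides of 0.

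The genes were chosen by symbol, but H2 symbols name genes of the H-2 region, so position was not independent of the choice. The chosen genes also set the bounds of the stretch counted here. From 3 tested genes before Tapbp to 3 after H2.T24, RefSeq order held 108 tested genes, of which 31 were lower and 9 higher. The 10 class I genes of this stretch besides the described ones gave 8 falls, with H2.K2 (-0.72) among them. The 88 genes of other function gave 17 falls (19.3%) and 8 rises (9.09%), with a median log2 fold change of -0.0909, where 16.1% of all genes tested were lower and 18.3% higher. Between Tap1 and Tap2 lies Psmb8, and Notch4, the next tested gene after Tap2, had a value of -0.40 (limma adjusted p = 0.189). H2.T24 lay between Gnl1, which rose by 0.17, and H2.T23, which fell by 0.66. Gnl1 and the nearby Abcf1 (0.16) each lost the call under 5 of 18 alternatives. On chromosome 2, the 3 tested genes before B2m, Spg11, Eif3j1 and Ctdspl2, had values of 0.14, 0.30 and 0.44, with Eif3j1 and Ctdspl2 past the test as higher. The 3 after it, Rps12.ps10, Sord and Shf, had values of -0.12, 0.0749 and 0.0251, and none passed.

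Over the 6 libraries, the genes whose log2 values followed B2m most closely were Rpn2, an oligosaccharyltransferase subunit (Pearson r = 0.999), Ebp of sterol synthesis (0.999), Rhob (0.999) and Tspo (0.998). For H2.T24 they were Cracd (0.996), Mpp5 (0.996), Jade1 (0.995) and Ank3 (0.993), of which Mpp5 lost its own call under 10 and Jade1 under 5 of 18 alternatives. These values are descriptions over 2 groups of 3 libraries, which any gene that differs between groups shares.

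Markers of other cells differed in level. Of the immune list 4 genes were in the table, with a summed level of 100.2 to 112 normalized counts in control and 64.6 to 103 in CAF_CM libraries, most of it Cd68, and Ptprc, which all leukocytes carry, was at 1.02 to 3.85 in control and 1.03 to 2.94 in CAF_CM libraries. The 8 fibroblast genes summed to 3515 to 3710 in control and 3165 to 3649 in CAF_CM libraries. Most of it was Pdgfrb, at 3254 ± 89.7 and 3016 ± 209 normalized counts. These counts were above those of B2m in both groups, but they were not divided by transcript length and do not rank the 2 genes. Dcn (-0.93) fell and Col1a2 (0.48) rose, calls lost under 1 and 6 of 18 alternatives. The 4 endothelial genes summed to 645 to 709 in control and 521 to 640 in CAF_CM libraries, most of it Egfl7, and 0 of 3 tested passed, though Tek passed as lower under 4 of 18 alternatives. Their part in the results was not tested. Of 11 acinar identity genes 4 fell and 2 rose, with a median log2 fold change of 0.12. The shares over all genes tested were 16.1% lower and 18.3% higher. Those that fell included Rbpjl (from 5316 ± 53.4 to 2996 ± 79.7 normalized counts) and Ctrb1 (from 45083 ± 997 to 23668 ± 2338). Nr5a2 and Gata4 rose, calls lost under 2 (Nr5a2) and 4 (Gata4) of 18 alternatives. The remaining genes of the list did not pass the test. Over these settings 0 to 4 acinar genes rose, 0 without control replicate 1 or 2, 1 without control replicate 3 or with library totals, and 4 without CAF_CM replicate 2 or with the length and GC correction.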

How the data were processed

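RNA of 6 libraries of the mouse 266.6 line was made into sequencing libraries with a TruSeq RNA kit (source: the labels' protocols). FastQC, DESeq2 and hg19, a human build although the symbols are of mouse, appear in the submitters' processing notes. For the aligner, counter, mouse build and use of strand, the entry is: not given in the sources used here. The authors deposited 1 signal per gene and library, read counts divided by 1 factor per library. In each library 100% of values were whole multiples, within 0.001 of a read, of 1 number between 0.949 and 1.05, which gave 18622370 to 21002226 reads. Of 20764 rows, 168 without a symbol (0.153% to 0.261% of reads) were left out.

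Values were tested as log2(value + 1) in limma 3.58.1 under R 4.3.3, with the variance trend, for genes that reached 10 in 3 or more libraries, with Benjamini-Hochberg adjustment and a threshold of 0.05. Settings tried instead were library totals, TMM, edgeR 4.0.16, DESeq2 1.42.0 and limma-voom on recovered reads, pseudocounts of 0.5 and 5, no filter or 1 CPM, a replicate block, group weights, a spline correction for transcript length and GC content (98.8% of tested genes had values), and each library left out. Longest transcripts came from GENCODE M21, gene order and promoters from RefSeq GRCm38.p6.

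The 7 genes and all lists were chosen with earlier results of these data known. Named genes were the 7, up to 4 called genes by lowest adjusted p from each list (the 2 of highest mean where fewer than 2 were called), neighbours of H2.T24 and Tap1, and the 4 closest patterns to B2m and H2.T24. Further genes, and the count over the H-2 stretch, were chosen after values were seen. One gene of the lists is not reported here.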

Additional observations from a re-analysis of the deposited data

How the results depend on the processing

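Under all 18 alternative settings 6 of the 7 genes were called lower and H2.T24 was called higher. Log2 fold changes ran from -0.63 to -0.52 for B2m, -0.52 to -0.36 for H2.D1, -0.65 to -0.43 for H2.K1, -0.65 to -0.51 for Tap1, -0.68 to -0.53 for Tap2, -0.62 to -0.48 for Tapbp and 0.98 to 1.63 for H2.T24, whose adjusted p reached 0.0361. Over all genes, the counts with 1 library left out ran from 1659 to 2943 lower and from 1868 to 3509 higher, lowest without control replicate 1; the split was 3179 lower and 2231 higher with library totals, and 2527 and 3637 with the length and GC correction. With a library left out, the ratio difference ran from 0.0213 to 0.14 for H2.D1 to H2.K1, 0.0592 to 0.13 for H2.D1 to B2m, -0.0781 to 0.11 for H2.K1 to B2m, 1.41 to 2.18 for H2.T24 to H2.K1, -0.0737 to 0.0621 for Tap1 to Tap2 and -0.0656 to 0.0758 for Tapbp to Tap1. Over the settings 6 to 8 other heavy chains, 3 to 4 class I relatives, 5 to 8 loading genes and 10 to 16 interferon-stimulated genes were called lower, and up to 2 immunoproteasome genes. Small values changed sign for Psme1 (0.0848) and Psme2 (0.0425) with the length and GC correction, for Ifnar1 (-0.0191) and Shf (-0.0203) with library totals, and without CAF_CM replicate 1 for Shf and Uggt1; the cause was not tested. With 1 library left out, the log2 fold change of Shf ran from -0.0186 to 0.0534 and the log2 fold change of Uggt1 from -0.0389 to 0.0491. The labels give no shared origin to libraries of one number, and deviations of same-numbered libraries correlated by 0.0700, 0.0290 and 0.0300, each library best with its own number, a hint from the data and not the design. With the replicate number as a block, 2755 genes were lower and 3166 higher, and of the 7 genes 6 were lower and 1 higher. The spread of low genes such as H2.T24, Nlrc5 and Psmb9 limits what 3 libraries per group can show.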
